A study of Mus musculus with 59 samples.

Results

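H3K27ac, acetylation of lysine 27 on histone H3, was measured in uteri of the 2 oldest age groups of a mouse study of reproductive ageing, by chromatin immunoprecipitation with sequencing of native, uncrosslinked chromatin. The libraries were chosen by the age in the column names of the H3K27ac table, which gave 10 libraries of aged group3 (54 to 65 weeks) and 6 of aged group2 (42 or 48 weeks), 16 of the 59 samples of the series. All animals were female C57/B6 mice with no treatment or engineered allele named, and each library came from a different animal, which also gave an H3K4me3 library. The aged group3 ages were 54 weeks for 1 animal, 60 weeks for 4, 63 weeks for 1, 64 weeks for 3 and 65 weeks for 1, and the aged group2 ages were 42 weeks for 3 animals and 48 weeks for 3. The labels give no stage of the oestrous cycle and no breeding history, so neither can be told apart from age here. The protocol describes pieces of endometrium, the inner layer of the uterus, while the tissue label is uterus as a whole.

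H3K27ac is laid down by the acetyltransferases CBP and p300 on nucleosomes around active promoters and enhancers, and it is removed by histone deacetylases when those elements fall silent. Peaks near gene starts therefore follow active promoters, and peaks away from them include enhancers, which differ more between cell types than promoters do. The uterine lining is made of luminal and glandular epithelium over a stroma of fibroblasts with vessels and leukocytes, with smooth muscle outside it, and oestrogen and progesterone change the activity of both epithelium and stroma through each cycle.

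The table held 54362 H3K27ac peaks, of which the 54354 on chromosomes 1 to 19 and X were tested. Values are log2 RPKM, the log2 of reads scaled by peak length and by library total, made comparable between libraries by quantile normalization, so a difference of 1 is a doubling. Library totals were 7.60 to 13.3 M reads in aged group3 and 8.10 to 16.9 M reads in aged group2, with 34.5% to 48.3% and 35.4% to 43.7% of reads in peaks and a median of 50 reads per peak and library.

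No single promoter carried the comparison, so the sequences shown are those of 4 promoters that had lower H3K27ac in all 10 aged group3 libraries than the aged group2 mean. Herpud2 and Saysd1 are the 2 promoter peaks among the 8 named peaks with the lowest p of those lower in aged group3, and Ahi1 and Qk are promoters whose 10 aged group3 values all lay below the 6 aged group2 values, chosen after their values were seen. The runs are RefSeq sequences of build GRCm38.p6, from 250 bases before to 50 bases after each gene start, 5′ to 3′ on the strand of the gene: chr9:25151732-25152031, minus strand, for Herpud2; chr14:20083123-20083422, minus strand, for Saysd1; chr10:20952297-20952596, plus strand, for Ahi1; and chr17:10319312-10319611, minus strand, for Qk. Capitals mark a GC box, GGGCGG, which binds factors of the Sp and Klf families, or an ETS motif, CCGGAAG, read on both strands.
Herpud2: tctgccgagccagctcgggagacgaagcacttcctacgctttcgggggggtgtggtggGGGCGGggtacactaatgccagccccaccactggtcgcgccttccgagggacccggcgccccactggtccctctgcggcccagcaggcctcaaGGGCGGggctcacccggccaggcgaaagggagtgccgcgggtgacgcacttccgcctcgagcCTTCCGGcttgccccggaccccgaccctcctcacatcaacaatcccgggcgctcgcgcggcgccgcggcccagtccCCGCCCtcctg
Saysd1: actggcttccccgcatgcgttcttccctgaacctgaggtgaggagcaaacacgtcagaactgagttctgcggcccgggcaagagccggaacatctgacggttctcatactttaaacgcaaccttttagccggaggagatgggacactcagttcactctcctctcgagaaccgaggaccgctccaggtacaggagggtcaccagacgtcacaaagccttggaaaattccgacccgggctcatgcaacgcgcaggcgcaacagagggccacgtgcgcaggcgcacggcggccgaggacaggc
Ahi1: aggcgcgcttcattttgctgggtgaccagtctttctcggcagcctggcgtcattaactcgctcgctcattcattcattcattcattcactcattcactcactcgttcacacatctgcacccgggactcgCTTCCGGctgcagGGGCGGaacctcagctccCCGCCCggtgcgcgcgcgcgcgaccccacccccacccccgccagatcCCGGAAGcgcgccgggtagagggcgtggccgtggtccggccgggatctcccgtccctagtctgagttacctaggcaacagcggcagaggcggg
Qk: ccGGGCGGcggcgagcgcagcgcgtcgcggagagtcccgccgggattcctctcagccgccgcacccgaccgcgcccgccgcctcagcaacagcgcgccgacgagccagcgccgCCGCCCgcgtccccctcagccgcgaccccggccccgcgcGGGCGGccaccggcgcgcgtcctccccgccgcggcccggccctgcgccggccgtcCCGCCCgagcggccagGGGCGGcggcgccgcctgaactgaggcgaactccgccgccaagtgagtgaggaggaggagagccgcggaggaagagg
Herpud2 held 3 GC boxes and 1 ETS motif, Ahi1 held 2 of each, Qk held 5 GC boxes, and Saysd1 held no match to any of the 9 motifs searched. A GC box was present in 35.7% and the ETS motif in 8.86% of the 32851 RefSeq promoter windows of this length. The other motifs searched, on both strands, were AP-1 (TGANTCA, in 7.81% of windows), RUNX (TGTGGTT, 5.27%), TEAD (ACATTCC, 3.85%), forkhead (TGTTTAC, 3.65%), the AbdB homeobox (TTTATGG, 2.75%), the progesterone and glucocorticoid response element (0.475%) and the oestrogen response element (0.0700%), the last 2 as palindromes with 3 free bases in the middle. None of these 7 was found in the 4 windows.

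No H3K27ac peak passed the test between the 2 oldest groups. Of 54354 peaks, 0 were higher and 0 lower in aged group3 at an adjusted p under 0.05 (0.0% of peaks in each direction, limma's moderated test with Benjamini-Hochberg adjustment over all peaks), and the smallest adjusted p was 0.22. At an unadjusted p under 0.05 there were 3821 higher peaks (7.03%) and 4897 lower peaks (9.01%), and none of these has passed a correction for the number of peaks. When single libraries were left out these counts ran from 2248 to 6269 higher and from 3145 to 7540 lower. The low counts came without aged group2 replicate 2 (2248 and 3145) or 3 (2286 and 3168), and the high ones without aged group2 replicate 5 (6269 and 7540) or aged group3 replicate 10 (6173 and 7349). The median difference over all peaks was -0.04. With the same libraries in the same model, aged group3 against young gave 7812 peaks higher (14.4%) and 8092 lower (14.9%) at the adjusted threshold, and aged group2 against young gave 6 higher and 0 lower. These comparisons share their libraries and differ in group size, and whether they differ from each other was not tested.

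The intervals show what sizes of difference the fit could carry, with the spread taken over all 27 libraries in 4 group means. The 95% interval of the difference lay between -1 and 1 at 76.8% of peaks, with a median standard error of 0.24. Fitted differences beyond 1 in size were found at 583 peaks that were higher in aged group3 and 101 that were lower. The SD between animals at a peak had a median of 0.45 in aged group3 and 0.43 in aged group2, against 0.37 both in aged group1 and in young uteri. The young and aged group1 libraries also enter the spread of the fit. With the 16 libraries fitted alone, 3305 peaks were higher and 3360 lower at an unadjusted p under 0.05. The smallest adjusted p was then 0.39 in limma.

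Within aged group3 the libraries did not form a single cloud. On the leading principal component of all 27 H3K27ac libraries, which held 42.4% of the variance, aged group3 replicates 1, 2, 5, 6, 7, 8 and 9 lay between 43.6 and 148, and replicates 3, 4 and 10 lay between -79.1 and -42.9. Of the aged group2 libraries, replicate 5 lay at 115, replicate 6 at 32.6, and replicates 1 to 4 between -72.7 and -12.1. The 4 animals of 60 weeks covered nearly the whole range, since replicates 6, 7 and 9 lay at 148, 125 and 136 and replicate 10 at -79.1. The 54-week animal, replicate 4, lay at -42.9, among the aged group2 libraries. Without aged group2 replicate 5, 34 peaks passed the threshold (12 higher and 22 lower in aged group3), and without aged group3 replicate 3 there were 4, all lower. Leaving out any other of the 16 libraries gave 0.

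**Figure D1:**
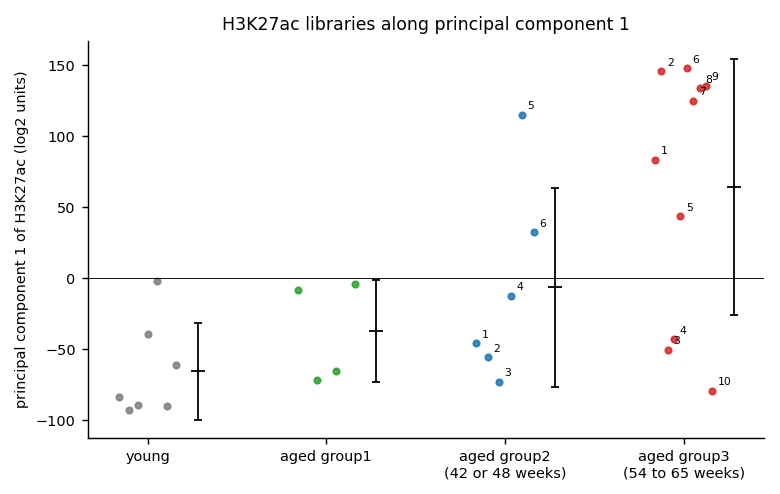
Position of each H3K27ac library on principal component 1 (vertical axis, log2 units summed over peaks) by age group (horizontal axis, youngest first), each point an animal and the numbers in the 2 oldest groups its replicate; bars give the mean and SD. Aged group3 ran from -79.1 to 148 and aged group2 from -72.7 to 115, so the groups overlapped over most of their range.

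Markers of cell types also differed between these libraries. The epithelium score, the mean log2 RPKM over the 20 measured promoter peaks of 30 listed epithelial genes, had a lowest, median and highest value of 1.35, 2.32 and 2.47 in aged group3 and 1.61, 1.93 and 2.27 in aged group2. The stroma score, over 16 of 24 listed stromal genes, was 0.74, 1.29 and 2.49 in aged group3 and 1.26, 2.04 and 2.21 in aged group2. Both pairs of groups overlapped, and the aged group3 library with the lowest epithelium score, replicate 10, had the highest stroma score of the 16. The difference of the 2 scores averaged 0.75 in aged group3 and 0.01 in aged group2, with -1.14 for aged group3 replicate 10 and 1.01 for aged group2 replicate 5, each the extreme of its group. Aged group2 replicate 6, at 32.6 on principal component 1, had -0.23, below replicate 4 with 0.30 at -12.1. Whether the score follows the component was not tested, and both come from the same peak values. In whole tissue, fewer cells of a type and less H3K27ac per cell cannot be told apart. Each listed promoter peak held reads in these libraries, and listed genes without a promoter peak have no value here.

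The score was also taken within subsets of the libraries, by library-code digit and by mouse number. The column names carry a library-code digit, whose meaning is not stated, and within each of the 6 digits that both groups share the epithelium minus stroma score was higher in aged group3 at 5 digits and lower at digit 4, with a mean difference of 0.86. Among the mice numbered over 200, 7 of aged group3 and all 6 of aged group2, the difference was 0.67, against 0.74 over all libraries. With this score as a covariate, 1209 peaks were higher and 1870 lower at an unadjusted p under 0.05, fewer than the 3821 and 4897 without it, and the smallest adjusted p was 0.80. The score is made from values of the same libraries and itself differs between the groups, so fewer peaks can come with adding it to the model. Its part in the results was not tested.

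The promoters of stromal genes lay mostly lower in aged group3, although none passed the adjusted threshold. Of the 10712 promoter peaks, taken as 1 per gene within 1 kb of its RefSeq start, 3.03% were higher and 14.9% lower at an unadjusted p under 0.05, with a median difference of -0.10, and the list counts are set beside these shares. Only 3350 of the 10712 differences were above 0, and list counts of differences above or below 0 are read against this. The promoter counts themselves, 325 higher and 1600 lower, ran from 156 to 701 higher and from 1041 to 2300 lower when single libraries were left out. There were 156 and 208 higher without aged group2 replicates 2 and 3, 216 and 210 without aged group3 replicates 2 and 8, 633 without aged group2 replicate 5 and 701 without aged group3 replicate 10, and 1041 lower without aged group2 replicate 3. Of 16 stromal promoter peaks 0 were higher and 11 lower at that level, with a median difference of -0.56 and a difference below 0 at all 16. The count was 5 with the 16 libraries fitted alone and 8 among the mice numbered over 200, and it was 5 without aged group2 replicate 2, 3 or 6 or aged group3 replicate 2 or 6, and the median stayed between -0.70 and -0.47 in all 16 fits that left out a library. Meis1, a homeobox factor with the highest promoter level of the list, had 2.56, 3.00 and 3.29 (lowest, median, highest) in aged group3 and 2.73, 3.14 and 3.56 in aged group2, a difference of -0.14 ± 0.11 (SE). Nr2f2, the nuclear receptor COUP-TFII of uterine stroma, had 2.50, 2.77 and 3.33 in aged group3 and 2.71, 3.00 and 3.25 in aged group2, a difference of -0.17 ± 0.10 (SE). Both genes overlapped broadly between groups and neither had an unadjusted p under 0.05. Vim, which encodes the mesenchymal filament protein vimentin and was picked after its value was seen, had 0.82, 1.50 and 2.73 in aged group3 and 1.62, 2.39 and 2.73 in aged group2, a difference of -0.66 ± 0.22 (SE, adjusted p = 0.23 in limma). For Vim, 7 of the 10 aged group3 libraries lay below every aged group2 library and 1 lay above them all.

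Collagen and matrix promoters had a similar profile. Of 30 measured promoter peaks 1 was higher and 16 were lower at an unadjusted p under 0.05, the median difference was -0.42, and 1 of the 30 had a difference above 0. With the 16 libraries fitted alone 7 were lower, and 9 among the mice numbered over 200. Leaving out single libraries moved the count of lower peaks to between 6 and 21, with medians of -0.52 to -0.36. The count was 6, 7 and 9 without aged group2 replicates 3, 2 and 6, 8 without aged group3 replicate 2 or 6, and 21 without aged group3 replicate 10. Col5a2, a chain of collagen V, had 1.47, 1.87 and 2.79 in aged group3 and 1.41, 2.27 and 2.61 in aged group2, a difference of -0.31 ± 0.17 (SE). Lamc1, a laminin chain of basement membranes, had 1.54, 1.90 and 2.57 in aged group3 and 1.71, 2.17 and 2.57 in aged group2, a difference of -0.20 ± 0.14 (SE). The ranges of the groups overlapped almost entirely for both. Col1a2 and Sparc, which encode a collagen I chain and a collagen-binding glycoprotein and were picked after their values were seen, differed by -0.71 ± 0.24 and -0.67 ± 0.22 (SE), with 6 and 5 of the 10 aged group3 libraries below every aged group2 library and an adjusted p of 0.23 each in limma. The collagen score averaged 0.99 ± 0.44 in aged group3 and 1.41 ± 0.28 in aged group2 (SD), and the stroma score over partly shared genes averaged 1.43 ± 0.56 and 1.93 ± 0.36.

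Genes of matrix degradation, which encode proteases and their inhibitors, had 0 higher and 7 lower of 15 promoter peaks at an unadjusted p under 0.05 (median difference -0.32). Ctsb, the protease cathepsin B, differed by -0.05 ± 0.08 (SE), with values of 2.21 to 2.68 in aged group3 and 2.21 to 2.67 in aged group2. Ctsl, cathepsin L, had 1.69, 2.06 and 2.31 in aged group3 and 2.18, 2.38 and 2.68 in aged group2, a difference of -0.33 ± 0.10 (SE, adjusted p = 0.22 in limma). For Ctsl 7 of 10 aged group3 libraries lay below every aged group2 library, whereas for Ctsb the ranges nearly coincided.

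Smooth muscle promoters had 0 higher and 6 lower of 12, with a median difference of -0.35 and a difference below 0 at all 12. Cald1, which encodes the actin-binding protein caldesmon, had 0.91, 1.18 and 2.44 in aged group3 and 1.72, 2.39 and 2.59 in aged group2, a difference of -0.75 ± 0.20 (SE, adjusted p = 0.22 in limma). Smtn, which encodes smoothelin of contractile muscle, differed by -0.15 ± 0.11 (SE), with values of 1.51 to 2.25 in aged group3 and 1.83 to 2.31 in aged group2. Since the protocol describes endometrium, muscle signal depends on how much of the outer wall a piece kept, which the labels do not give, and the part of this in the smooth muscle values was not tested.

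Of the 25 listed HOX genes, transcription factors that pattern the female reproductive tract along its length, 3 had a promoter peak, and 0 were higher and 2 lower at an unadjusted p under 0.05. Hoxa7 had -0.07, 0.47 and 2.02 in aged group3 and 0.86, 1.49 and 1.87 in aged group2, a difference of -0.87 ± 0.25 (SE, adjusted p = 0.22 in limma). For Hoxa7, 9 of the 10 aged group3 values lay below all aged group2 values and the remaining 1 lay above them. Hoxd11 differed by -0.61 ± 0.28 (SE), with 6 of 10 aged group3 libraries below every aged group2 library and 1 above them. Hoxd11 is also on the stroma list, so its promoter peak counts in both lists. Over all 13 peaks of the listed HOX genes, promoters or not, 0 were higher and 8 lower at an unadjusted p under 0.05, beside 7.03% higher and 9.01% lower of all tested peaks, with a median difference of -0.72.

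**Figure D2:**
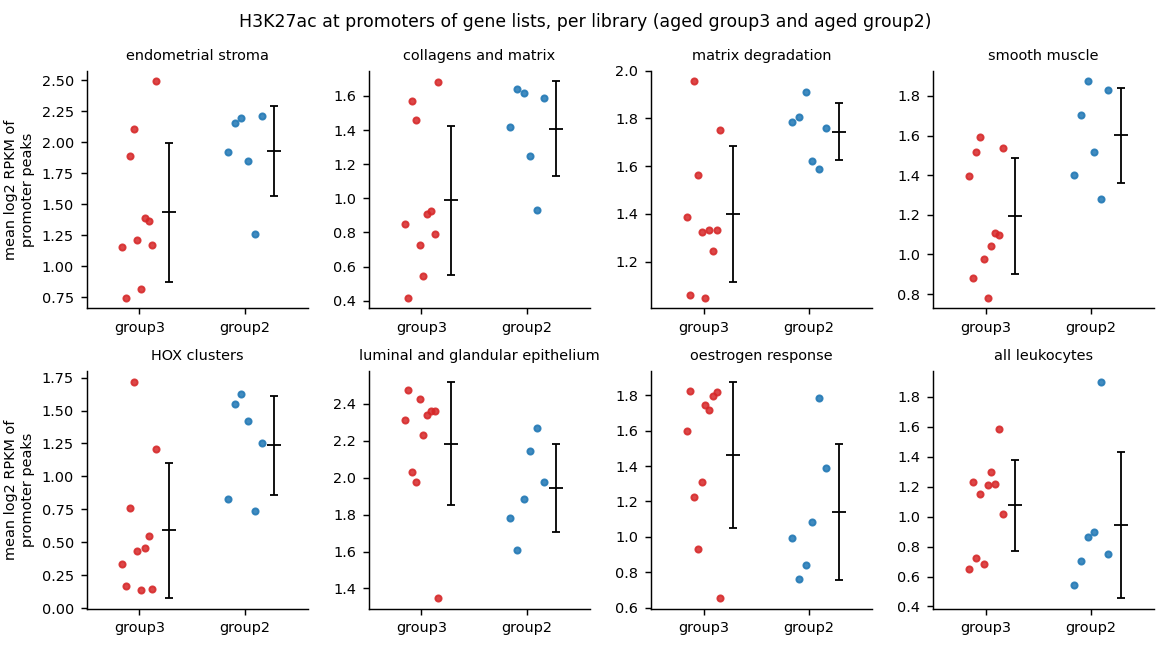
Mean H3K27ac over the promoter peaks of 8 gene lists (vertical axes, log2 RPKM) in each aged group3 library (left, red) and aged group2 library (right, blue), with mean and SD as bars. Stroma averaged 1.43 in aged group3 and 1.93 in aged group2 and epithelium 2.18 and 1.94, with overlapping libraries in all 8 lists.

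Epithelial promoters lay on the other side. Of 20 promoter peaks 2 were higher and 0 lower at an unadjusted p under 0.05, with a median difference of 0.20 and a difference above 0 at 18, and the count of higher peaks was 10 without aged group3 replicate 10, 7 without aged group2 replicate 5, 5 without aged group3 replicate 4, 3 without aged group3 replicate 3 or aged group2 replicate 4 or 6, and 1 without aged group2 replicate 1 or 2. With all libraries it was 6 with the values as deposited and 8 with median centring. Sox17, a transcription factor of uterine glands, had 2.41, 3.27 and 3.58 in aged group3 and 2.60, 2.92 and 3.19 in aged group2, a difference of 0.27 ± 0.13 (SE). Krt18, a keratin of simple epithelia, differed by 0.06 ± 0.14 (SE). Prom1, which encodes the apical membrane protein prominin-1 and was picked after its value was seen, averaged 2.08 ± 0.42 in aged group3 and 1.32 ± 0.51 in aged group2 (SD), a difference of 0.75 ± 0.20 (SE, adjusted p = 0.22 in limma). Its lowest aged group3 value was 1.33 and its highest aged group2 value 2.20, so the groups overlapped.

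Oestrogen-responsive promoters had 3 higher and 1 lower of 20, with a median difference of 0.37, and the count of higher peaks ran from 2 to 11 when single libraries were left out, with 11 without aged group3 replicate 10 or aged group2 replicate 5 and 7 without aged group3 replicate 4 or aged group2 replicate 6. Esr1, which encodes oestrogen receptor alpha, had 2.10, 2.60 and 2.92 in aged group3 and 2.58, 2.74 and 3.12 in aged group2, a difference of -0.24 ± 0.10 (SE). It was the 1 lower member, with an adjusted p of 0.25 in limma, and 4 of the 10 aged group3 libraries lay below every aged group2 library. Fos, an immediate early transcription factor that oestrogen induces in the uterus, differed by -0.19 ± 0.11 (SE). The 3 higher members were Padi2 and Padi1, peptidylarginine deiminases, and Wnt4, a secreted ligand, named because the count is small, with differences of 0.78 ± 0.26, 0.90 ± 0.31 and 0.64 ± 0.30 (SE).

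Padi2 had 0.04, 0.96 and 1.81 in aged group3 and -0.27, 0.27 and 0.61 in aged group2, so 8 of 10 aged group3 libraries lay above every aged group2 library. The oestrogen list score per library ran from 0.65 in aged group3 replicate 10 to 1.82, against 0.76 to 1.78 in aged group2, and its highest aged group2 library was replicate 5. The epithelium score, given above, has the same 2 libraries at the low end of aged group3 and the high end of aged group2, and the part of cell types in the oestrogen list was not tested.

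Progesterone-responsive promoters had 0 higher and 1 lower of 11, and 3 lower without aged group2 replicate 5 or aged group3 replicate 3. Of the 11 differences 10 were below 0, and their median was -0.23. Pgr, which encodes the progesterone receptor, had 1.77, 2.04 and 2.45 in aged group3 and 2.07, 2.22 and 2.79 in aged group2, a difference of -0.22 ± 0.13 (SE), and 5 of 10 aged group3 libraries lay below every aged group2 library. The list for decidualisation and implantation, the change of stroma that receives an embryo, had 1 higher and 4 lower of 16 with a median near 0 (0.00) that changed sign with the scaling. Gata2, a transcription factor upstream of Pgr, differed by -0.00 ± 0.08 (SE).

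**Figure D3:**
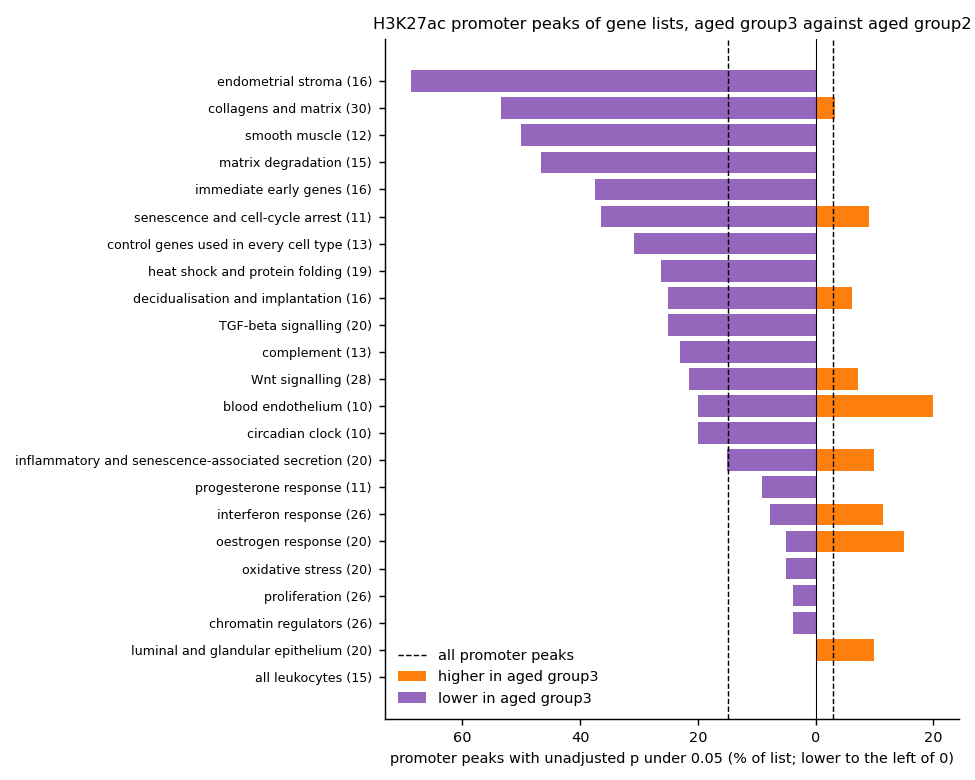
Share of promoter peaks (horizontal axis, %) with an unadjusted p under 0.05 that were higher (orange, right of 0) or lower (purple, left of 0) in aged group3 than in aged group2, for lists with at least 10 measured promoter peaks (number in brackets); dashed lines give the shares over all promoter peaks, 3.03% higher and 14.9% lower. Stroma reached 11 of 16 lower, and no bar counts a peak that passed the adjusted threshold.

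Promoters as a class leaned lower, and that lean depended on the scaling. Of the lower peaks at an unadjusted p under 0.05, 32.9% were promoter peaks, and of the higher ones 8.7%, beside 20.1% of all tested peaks. A peak of H3K4me3, the mark of gene starts, overlapped 57.1% of the lower peaks, 26.3% of the higher peaks and 38.4% of all. Of 10712 promoter peaks, 325 were higher and 1600 lower after quantile normalization, with a median of -0.10, but 536 were higher and 782 lower with median centring alone, with a median of -0.00, and 298 and 738 with the values as deposited. The 13 promoters of genes that every cell type uses, such as Polr2a, the large subunit of RNA polymerase II, had 0 higher and 4 lower and a median of -0.09, which became 0.06 with median centring and 0.01 with the values as deposited. The medians of the stroma, collagen, matrix degradation, smooth muscle, HOX, epithelium and oestrogen lists kept their sign with the values as deposited and with median centring.

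The other pathway lists are read against the same promoter shares. Immediate early genes, switched on within minutes of a stimulus, had 0 higher and 6 lower of 16 (median -0.21), with 2 lower without aged group2 replicate 3, 3 without aged group2 replicate 1 or 2 or aged group3 replicate 2, and 3 with the values as deposited. Klf6, a zinc finger factor, had 2.62, 2.94 and 3.08 in aged group3 and 2.93, 3.10 and 3.27 in aged group2, a difference of -0.22 ± 0.07 (SE, adjusted p = 0.23 in limma), and Ier2 differed by -0.08 ± 0.09 (SE). The senescence and cell-cycle arrest list had 1 higher and 4 lower of 11, but 0 lower with the values as deposited or with median centring and 2 without aged group2 replicate 1 or 3. With median centring 2 were higher. Of the 11 differences 5 were above 0 and 6 below, and their median was -0.10, beside -0.10 over all promoter peaks. Cdkn1b, which encodes the cyclin-dependent kinase inhibitor p27, had 2.16, 2.75 and 3.07 in aged group3 and 2.82, 2.94 and 3.22 in aged group2, a difference of -0.29 ± 0.10 (SE). Glb1, the lysosomal beta-galactosidase used as a stain for senescent cells, differed by -0.22 ± 0.09 (SE), with an adjusted p of 0.27 in limma. For Cdkn1b and Glb1, 7 and 6 of the 10 aged group3 libraries lay below every aged group2 library, and both genes are among the 6 members below 0.

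Proliferation genes had 0 higher and 1 lower of 26, and 6 were higher without aged group2 replicate 5, 5 without aged group3 replicate 3 and 3 without aged group3 replicate 4. The lower one was Aurka, a kinase of the mitotic spindle, with 1.98, 2.30 and 2.77 in aged group3 and 2.46, 2.74 and 2.79 in aged group2, a difference of -0.39 ± 0.10 (SE, adjusted p = 0.22 in limma) and 9 of 10 aged group3 libraries below every aged group2 library. Kif11, a mitotic motor, differed by -0.00 ± 0.17 (SE). TGF-beta signalling had 0 higher and 5 lower of 20 (median -0.17) and 2 lower with the values as deposited or with median centring, where Bmpr2, a BMP receptor, differed by -0.29 ± 0.10 and Ski, a repressor of SMAD signalling, by -0.20 ± 0.10 (SE). Wnt signalling had 2 higher and 6 lower of 28 (median -0.17), but 2 lower with the 16 libraries fitted alone or without aged group2 replicate 3, with Rnf43, a ligase that removes Wnt receptors and is itself a Wnt target, at 0.32 ± 0.15 and the ligand Wnt5a at -0.32 ± 0.14 (SE). Rnf43 ranged from 1.82 to 3.01 in aged group3 and 1.88 to 2.71 in aged group2, and Wnt5a from 1.44 to 2.64 in aged group3 and 1.89 to 2.60 in aged group2.

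The inflammatory and senescence-associated secretion list had 2 higher and 3 lower of 20, and its nuclear factor kappa B genes Rela and Nfkb1 differed by -0.16 ± 0.07 and -0.03 ± 0.08 (SE). Interferon response genes had 3 higher and 2 lower of 26 with a median of -0.04 that became 0.07 with median centring and 0.02 with the values as deposited. The higher count was then 8 (30.8%) and 6 (23.1%), beside 5.00% and 2.78% of all promoter peaks. It was 2 with the 16 libraries fitted alone, 1 with the library-code digit in the model and 0 with the replicate number as a block. The antiviral genes Mx2 and Oasl2, not among the 3 higher members, differed by -0.11 ± 0.11 and -0.06 ± 0.11 (SE). Antigen presentation had 0 higher and 0 lower of 5, with Psmb9, an immunoproteasome subunit, and H2-K1, a class I molecule, at 0.02 ± 0.11 and 0.09 ± 0.15 (SE). Complement had 0 higher and 3 lower of 13, with Cd55, a complement inhibitor, at -0.07 ± 0.10 (SE). Circadian clock genes had 0 higher and 2 lower of 10, with Nr1d1 and Per2 at -0.08 ± 0.10 and -0.07 ± 0.12 (SE). Heat shock and protein folding had 0 higher and 5 lower of 19, with Hspa9 and Hsp90ab1, a mitochondrial and a cytosolic chaperone, at -0.15 ± 0.08 and -0.16 ± 0.09 (SE). Oxidative stress had 0 and 1 of 20, with Srxn1 and Nfe2l2, which encodes the regulator NRF2, at -0.18 ± 0.12 and -0.15 ± 0.10 (SE). Chromatin regulators had 0 and 1 of 26, with the H3K27 demethylase Kdm6a and the deacetylase Sirt6 at -0.14 ± 0.08 and -0.05 ± 0.08 (SE). These 8 lists had medians between -0.19 and 0.09. Their counts moved with the settings, and for heat shock 0 were lower without aged group2 replicate 3, 9 without aged group2 replicate 5 and 2 with the values as deposited or with median centring. The circadian list had 0 lower with the values as deposited or with median centring, and the secretion list had 0 lower without aged group2 replicate 3 and 6 without aged group3 replicate 4.

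Markers of other cells varied by animal. All-leukocyte promoters had 0 higher and 0 lower of 15, with a score of 0.65, 1.18 and 1.58 in aged group3 and 0.54, 0.80 and 1.90 in aged group2. The highest of these 16 values belonged to aged group2 replicate 5, which also had the highest macrophage score, 1.72. T and NK cell genes had 3 promoter peaks, all with a difference above 0 and none with an unadjusted p under 0.05, among them Gzma, granzyme A, at 0.13 ± 0.33 and Cd5 at 0.49 ± 0.28 (SE). Macrophage genes had 0 higher and 1 lower of 7, which was Fcer1g, an Fc receptor chain, at -0.50 ± 0.20 (SE), while Cd14 was at 0.11 ± 0.13 (SE). B and plasma cell genes had 1 higher and 0 lower of 3, with Xbp1 at -0.06 ± 0.12 and Prdm1 at -0.45 ± 0.24 (SE). The higher peak was the remaining member, and the list score averaged 1.66 in aged group3 and 1.52 in aged group2. Pericyte genes had 1 and 1 of 4, with Pdgfrb at -0.43 ± 0.26 and Kcnj8 at -0.44 ± 0.19 (SE). The higher pericyte peak belonged to another member, the only 1 of the 4 with a difference above 0. The adipocyte and mesothelium list had 0 and 0 of 3.

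Blood endothelium had 2 higher and 2 lower of 10. Esam, an adhesion molecule of endothelial junctions, differed by -0.44 ± 0.19 and Sox7, an endothelial transcription factor, by 0.51 ± 0.22 (SE). The lower members were Esam and Cldn5, which encodes the tight-junction protein claudin-5, and the higher were Sox7 and Flt1, a VEGF receptor. Of the 10 differences 8 were below 0, beside 3350 of 10712 above 0 over all promoter peaks, so this count lies near the general lean. Cldn5 had -1.21, -0.10 and 0.46 in aged group3 and 0.54, 0.92 and 1.33 in aged group2, a difference of -1.21 ± 0.33 (SE, adjusted p = 0.22 in limma), with no overlap between groups but on only 3 to 12 reads per library in aged group3 and 12 to 34 in aged group2. Of 9 listed lymphatic genes only Nrp2 and Pdpn had a promoter peak. Both were lower at an unadjusted p under 0.05, by -0.37 ± 0.14 and -0.59 ± 0.19 (SE), and 1 of them was without aged group2 replicate 3. Over all 22 peaks of the list 0 were higher and 4 lower, with a median difference of -0.13, beside 7.03% higher and 9.01% lower of all tested peaks.

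Single peaks with the smallest p were then described, 8 in each direction by the rule given with the methods, and none of the 16 passed, each with an adjusted p of 0.22 in limma. Of the 8 higher in aged group3, 1 was a promoter peak, and of the 8 lower, 2 were. In all 16 at least 9 of the 10 aged group3 libraries lay on the same side of the aged group2 mean, which comes with choosing them by p. Over all tested peaks, all 10 lay on 1 side of that mean at 3.29%.

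Herpud2, whose product is related to an endoplasmic reticulum stress protein and whose promoter is printed above, had a lowest, median and highest value of 2.08, 2.48 and 2.71 in aged group3 and 2.84, 2.86 and 3.02 in aged group2 over its peak at chr9:25149736-25153316. The groups did not overlap, and the difference was -0.43 ± 0.08 (SE, 95% interval -0.59 to -0.26), on 173 to 345 reads per library in aged group3 and 176 to 429 in aged group2. Young and aged group1 uteri averaged 2.81 and 2.80, close to the aged group2 mean of 2.89. Saysd1, also printed above, had 2.54, 2.72 and 2.87 in aged group3 and 2.84, 3.10 and 3.14 in aged group2 over chr14:20081030-20084008, a difference of -0.35 ± 0.07 (SE). For Saysd1 9 of 10 aged group3 libraries lay below every aged group2 library, but the young mean, 2.75, was close to the aged group3 mean, 2.72.

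An intragenic peak of Wwox, an oxidoreductase gene, at chr8:114772331-114772916 had 0.33, 0.73 and 1.23 in aged group3 and 1.40, 1.70 and 2.28 in aged group2, without overlap and with a difference of -0.92 ± 0.19 (SE), on 6 to 23 reads per library in aged group3 and 14 to 30 in aged group2. An intragenic peak of Aak1, a kinase of clathrin-mediated endocytosis, had 0.38, 0.89 and 1.07 in aged group3 and 1.25, 1.54 and 2.17 in aged group2, also without overlap (-0.80 ± 0.17, SE). Synj2, which encodes an inositol phosphatase, had 1.95, 2.13 and 2.33 in aged group3 and 2.35, 2.57 and 2.64 in aged group2 at a peak within the gene (-0.39 ± 0.08, SE). These 3 peaks lay far from the gene starts, and in each of them the young mean, 1.77, 1.61 and 2.41, lay nearer to aged group2 than to aged group3.

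The other 3 lower peaks were those of S100a5, a calcium-binding protein gene (-0.59 ± 0.13), Cuedc1, which encodes a protein with a ubiquitin-binding domain (-1.32 ± 0.29), and a peak that the table assigns to Galnt2l (-0.61 ± 0.12, SE). The table gives the name Galnt2l to 252 peaks and the RefSeq gene table does not hold it, so that assignment is uncertain. At the Galnt2l peak the 10 aged group3 libraries lay below the 6 aged group2 libraries, with a highest value of 1.99 and a lowest value of 2.20.

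The higher peaks had aged group2 means from -0.24 at Spata16 to 0.92 at Vps13b, all under the level limit of 0.93. That limit applied to the group where a peak was higher, so these peaks met it through aged group3. Their low level in aged group2 may therefore come with the choice and is not read as a result. Pof1b, an epithelial actin-binding protein gene, had 1.03, 1.35 and 1.67 in aged group3 and -1.28, 0.32 and 0.88 in aged group2 at chrX:112693879-112695047, a difference of 1.23 ± 0.28 (SE) without overlap. Spc24, which encodes a kinetochore subunit, was the 1 promoter peak, with 1.05, 1.53 and 2.13 in aged group3 and -0.24, 0.66 and 1.38 in aged group2, a difference of 0.97 ± 0.23 (SE). For Spc24, whose young mean was 1.08, 7 of the 10 aged group3 libraries lay above all aged group2 libraries.

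Spata16, known from sperm formation, had 0.65, 1.32 and 2.07 in aged group3 and -1.72, -0.40 and 1.52 in aged group2 at a peak within the gene (1.63 ± 0.34, SE). Fdps, which encodes the farnesyl diphosphate synthase of the mevalonate pathway, had 0.86, 1.26 and 2.01 in aged group3 and -0.60, 0.09 and 1.64 in aged group2 (1.15 ± 0.27, SE), and only 1 aged group3 library lay above every aged group2 library. In young and aged group1 uteri the Fdps peak averaged 1.14 and 1.30, so aged group2 was the low group of the 4. The peaks of Vps13b, a Golgi lipid transfer protein gene (0.97 ± 0.21), Cfap58, a cilia and flagella gene (1.61 ± 0.38), Kyat1, a kynurenine aminotransferase gene (0.89 ± 0.21), and Slc28a3, a nucleoside transporter gene (1.23 ± 0.29, SE), each had 7 to 9 aged group3 libraries above all aged group2 libraries.

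**Figure D4:**
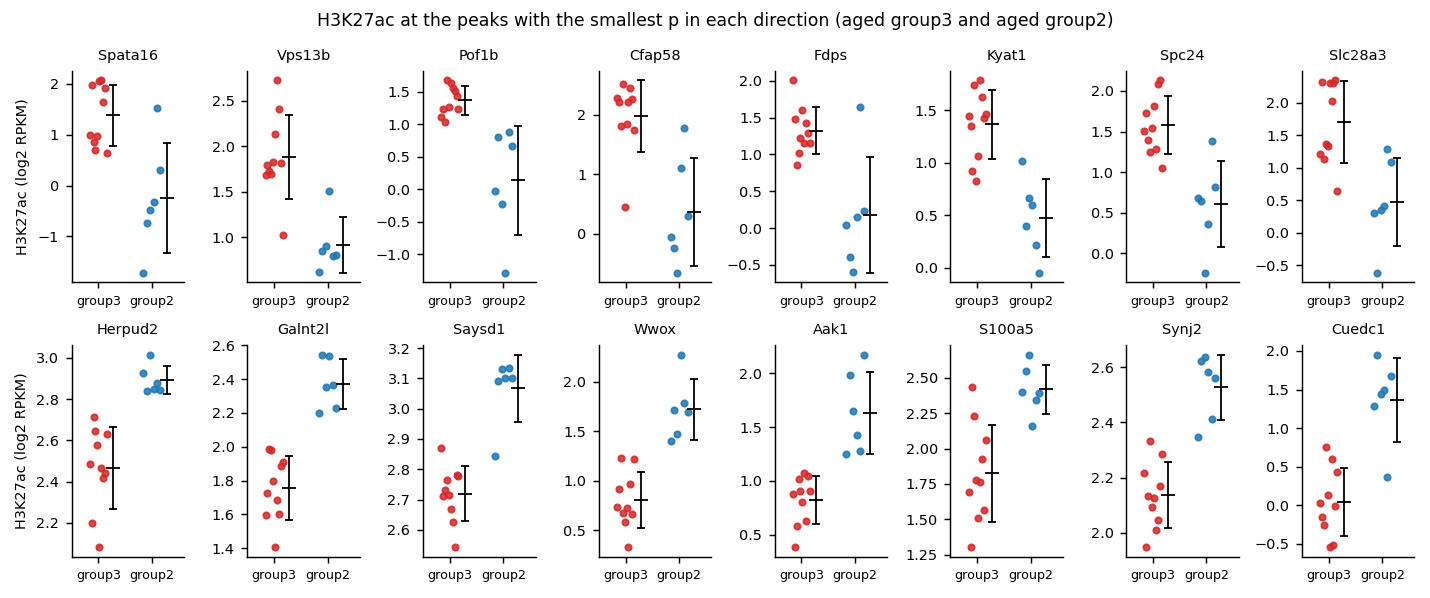
H3K27ac (vertical axes, log2 RPKM) at the 8 higher peaks (upper row) and 8 lower peaks (lower row) of smallest p in each aged group3 library (left, red) and aged group2 library (right, blue), with mean and SD as bars. The groups do not overlap at Pof1b, Herpud2, Galnt2l, Wwox, Aak1 and Synj2, and no peak passed the adjusted threshold.

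Peaks without a gene within 5 kb showed differences of the same sizes. The 4 higher ones of smallest p, at chr11:70330483-70335222, chr2:154294264-154294939, chr13:101895018-101897499 and chr2:147837840-147840755, differed by 1.02 ± 0.24, 1.10 ± 0.26, 0.94 ± 0.23 and 0.88 ± 0.22 (SE). Of the 4 lower ones, on chromosomes 18, 5, 8 and 12, the peak on chromosome 18 had 0.70, 1.22 and 1.64 in aged group3 and 1.80, 1.89 and 2.54 in aged group2, a difference of -0.82 ± 0.15 (SE) without overlap. The peak at chr12:35977801-35978182 differed by -1.47 ± 0.36 (SE) but spread widely in aged group3, with values of -1.10 to 2.21 against 1.06 to 2.42 in aged group2.

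Over all tested peaks the 2 groups did not overlap at 7 peaks that were higher (0.0129%) and 21 that were lower in aged group3 (0.0386%), and the ones named in this paragraph were chosen after their values were seen. Besides Pof1b, the higher ones included Gpt2, an alanine aminotransferase gene, and Pim2, a kinase gene, with differences of 0.89 ± 0.25 and 0.76 ± 0.25 (SE). Gpt2 had 1.22, 1.89 and 2.37 in aged group3 and 0.51, 0.98 and 1.17 in aged group2. The lower ones included the promoters of Ahi1, a ciliary protein gene, Qk, an RNA-binding protein gene, and Med7, a subunit of the Mediator complex, with differences of -0.39 ± 0.09, -0.34 ± 0.11 and -0.42 ± 0.14 (SE). Ahi1 had 1.81, 2.18 and 2.40 in aged group3 and 2.46, 2.57 and 2.65 in aged group2, and Qk had 1.49, 1.83 and 2.01 in aged group3 and 2.02, 2.11 and 2.18 in aged group2. In both, the gap between the groups was small beside the range within aged group3.

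The place of aged group2 between young and aged group3 was described at peaks chosen on aged group3 against young, so their levels carry no test here. The Foxc1 promoter, of a forkhead factor gene, averaged -0.33 ± 0.40 in young, 1.17 ± 0.62 in aged group1, 1.49 ± 0.74 in aged group2 and 2.26 ± 0.44 in aged group3 (SD), and 4 of 10 aged group3 libraries lay above every aged group2 library. A peak near Sult1e1, which encodes the sulfotransferase that inactivates oestrogens, averaged 1.44 ± 0.22, 2.14 ± 0.38, 2.35 ± 0.21 and 2.46 ± 0.27 (SD) in the same order of groups, so most of its range was already covered in aged group1. In contrast, at the Emp3 promoter, of an epithelial membrane protein family gene, the means were 2.63 ± 0.10, 2.65 ± 0.12, 2.42 ± 0.19 and 1.98 ± 0.31 (SD), with young and aged group1 close in mean and most of the range between aged group2 and aged group3.

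Of the 16 peaks so chosen, the difference of aged group3 minus aged group2 ran from 0.11 at Sult1e1 to 0.77 at Foxc1 among the 8 higher than young and from -0.75 at Ippk to -0.22 at Mos among the 8 lower. The Ippk peak, within the gene of an inositol phosphate kinase, averaged 2.23 in young, 1.58 in aged group1, 1.72 in aged group2 and 0.97 in aged group3. The peak near Mos, a germ cell kinase gene, averaged 2.59, 2.18, 1.87 and 1.65 in that order, and its aged group3 libraries all lay within the range of aged group2. The Bahcc1 promoter, of a chromatin protein gene, averaged 2.07, 1.67, 1.29 and 0.80. The order of the 4 means followed age at 12 of the 16 peaks, and at Coro2b, Hecw2, Ippk and Emp3 aged group1 stood out of order. Choosing peaks on aged group3 against young favours aged group3 as the extreme group, so this order is not read as a result.

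**Figure D5:**
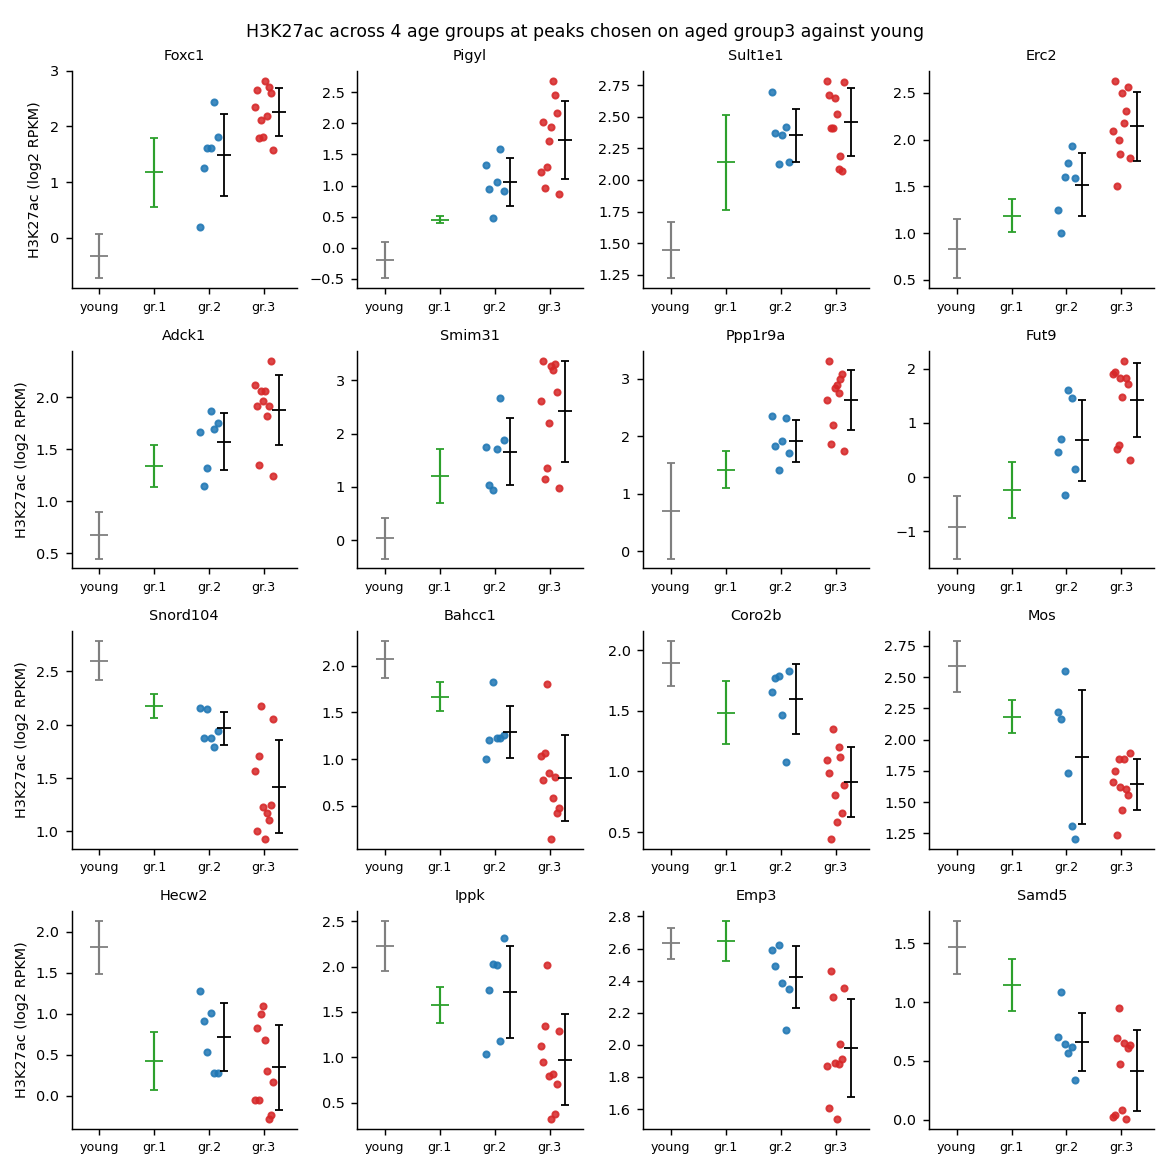
H3K27ac (vertical axes, log2 RPKM) in young, aged group1, aged group2 and aged group3 uteri at 16 peaks chosen on aged group3 against young, with points for the libraries of the 2 oldest groups and bars for the mean and SD of each group. Aged group3 lay beyond aged group2 in mean at every one of these peaks, by 0.11 at Sult1e1 up to 0.77 at Foxc1, a direction that the choice of peaks favours.

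H3K4me3 of the same animals gave a small number of passing peaks. Of 25827 peaks 14 rose (0.0542%) and 39 fell (0.151%) in aged group3 at an adjusted p under 0.05 in limma, a count that was 0 with the values as deposited, with the 16 libraries alone and with the library-code digit in the model, and 2083 without aged group3 replicate 10. An H3K27ac peak overlapped 9 of the 14 and 33 of the 39. H3K27ac differed in the same direction at 7 of the 9, with a median of 0.31, and at 28 of the 33, with a median of -0.42, and the unadjusted p of H3K27ac was under 0.05 at 3 and 16 of them, beside 7.03% higher and 9.01% lower of all H3K27ac peaks. Over all tested H3K27ac peaks 24442 of 54354 differences were above 0. The marks come from the same animals, so the shared direction has no test here. Nfib, a transcription factor gene, Ptgis, which encodes prostacyclin synthase, and Hoxc5 were among those with lower H3K4me3, named after their values were seen. At their overlapping peaks H3K27ac averaged 0.66 in aged group3 and 1.49 in aged group2 for Nfib, 0.59 and 1.37 for Ptgis, and -0.09 and 0.70 for Hoxc5, and none of the 3 passed for H3K27ac.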

How the data were processed

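Native ChIP-seq of H3K27ac and H3K4me3 was made from uterine tissue of the same animals. The deposited tables hold log2 RPKM per peak and library, as the authors named them. Per the submitters' processing notes, reads were aligned to GRCm38 with Bowtie2, and the notes name DESeq2, deepTools 3.5.1, ChIPseeker 1.34.1, DiffBind 3.8.0 and MACS2 2.2.9.1, with their roles not given in the sources used here. Each value, on the authors' log2 scale, gave a whole read within 0.05 or the no-read value, equal to 0.9 reads, in 100% of values. Peaks were shared by all libraries, and whether they were called on pooled reads is not given.

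Values were quantile normalized over the 27 libraries of a mark. They were fitted with limma 3.58.1 in R 4.3.3 (lmFit, eBayes with trend) in 4 group means. Tests were two-sided, p was adjusted by Benjamini-Hochberg across the 54354 peaks tested, and the threshold was 0.05. The 8 peaks on chromosome Y were left out. The fit was tested on simulated data. A promoter peak lay within 1 kb of the RefSeq start (GRCm38.p6) of the gene the table names, and 14931 of 16763 symbols had a start. Differences are aged group3 minus aged group2.

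Named peaks were the 8 of smallest p per direction with a gene symbol (not a predicted or clone name), 1 per gene, and a level of 0.93 or more, the lower quartile of peak means, in the group where they were higher. Added to these were the 4 per direction without a gene name, for each of 31 lists the 2 members of highest mean (some are not reported here), and the 8 per direction for aged group3 against young. The members and lists were chosen with earlier results of these data known. Replicates are separate animals with a single library each, so spread between animals and between preparations cannot be told apart. Of 60 pairs of libraries within the 2 groups, none was identical, and their chi-square over its degrees of freedom was 2.08 or more. Input libraries were not analysed here.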

Additional observations from a re-analysis of the deposited data

Results flagged for a closer look

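A value was singled out when the highest or lowest animal of a group stood apart from the nearest other by more than Dixon's 95% limit. Of 148 groups examined, 12 were singled out. Chance gives about 1 in 20 for independent, normally distributed groups. These groups share animals and include peaks chosen by p, so the count is not read against that rate.

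At named peaks these were the values of Vps13b in aged group2 replicate 4 (1.51, highest), Cfap58 in aged group3 replicate 5 (0.45, lowest), Fdps in aged group2 replicate 5 (1.64, highest), Saysd1 in aged group2 replicate 1 (2.84, lowest), Bahcc1 in aged group2 replicate 3 (1.83, highest) and the peak without a gene name that starts at base 96979288 of chromosome 5 in aged group2 replicate 1 (1.71, lowest). At Fdps the next aged group2 value was 0.23.

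Among the list scores, the mean log2 RPKM over a list's promoter peaks, the epithelium score of aged group3 replicate 10 was 1.35, with the next lowest at 1.98. Aged group2 replicate 5 was highest in the all-leukocyte score (1.90, next 0.90) and the macrophage score (1.72, next 0.94), and its deposited values had the largest SD over peaks in its group, 0.98. The TGF-beta score of aged group2 replicate 2 was 1.62, the lowest of its group, and the lymphatic score of aged group2 replicate 3 was 2.22, the highest. What sets these animals apart was not tested.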

How the results depend on the processing

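The count of 0 H3K27ac peaks held in all settings other than 3. It became 20793 (9754 higher and 11039 lower) with limma's array weights, which gave aged group3 replicates 10, 3 and 4 weights of 0.26, 0.36 and 0.36; the cause was not tested. Leaving out single libraries gave 0 to 34 peaks, 34 without aged group2 replicate 5 and 4 without aged group3 replicate 3. Of the 24 named peaks, all 24 passed with array weights and 0 to 8 when a library was left out, and of the 419 list promoter peaks 208 passed with array weights. No named peak changed direction. For H3K4me3, the 53 peaks became 0 with the values as deposited, 0 with the 16 libraries alone, 0 with the digit of the library code in the model, 493 among mice numbered over 200, 365 with voom on recovered reads (an alternative chosen after seeing the data), and 0 to 2083 when a library was left out, with 2083, 1250 and 1204 without aged group3 replicates 10, 4 and 3 and 994 without aged group2 replicate 5.

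Replicate numbers are shared between groups, and a fit with the replicate number as a block gave 0 H3K27ac peaks and 2 H3K4me3 peaks. The H3K27ac correlations of the 6 same-numbered pairs ran from -0.36 to 0.53, with 2 over 0.1 and 1 pair best with its own number. Each of replicates 1 to 5 carries the same library-code digit in both groups. Whether same-numbered libraries share a preparation was not tested. A median of 50 reads per peak and a median standard error of 0.24 limit which differences could pass. The labels do not give the cycle stage, the mix of cell types or the meaning of the library-code digit, and no genome was used, so peak sequences were not searched.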
